A study of Ovis aries with 36 samples.

Results

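The infraspinatus of the shoulder that was not operated on was compared, in 3 sheep, with the infraspinatus of the other shoulder before surgery. The 6 libraries are those titled END-CC and PRE of the arm N6W, 3 of each from the animals 2907, 2908 and 2909, of 36 libraries in all, and each END-CC library was set against the PRE library of its own animal. All animals were female Swiss Alpine sheep, 2 years old, whose infraspinatus tendon was released on 1 side and reattached 16 weeks later. END-CC of N6W is the muscle opposite the operated side, biopsied 6 weeks after reattachment and so 22 weeks after release, when the animals had received 150 mg of nandrolone decanoate a week for 6 weeks. PRE of N6W is the muscle that was to be operated on, before release and before any drug. Used beside them were TR of N6W, the released muscle at 16 weeks without drug, and END of N6W, the reattached muscle at 22 weeks with 6 weeks of drug. END-CC of N22W, with 22 weeks of the same weekly dose, and END-CC of CONTROL, without drug, gave the unoperated muscle of animals that had had the same surgery. PRE, TR and END of these arms were used too. CONTROL received no drug, while in N22W PRE preceded the drug, TR followed 16 weeks of it and END 22 weeks. Each group held 3 libraries from 3 animals, where the design text describes 6 animals per arm. Between END-CC and PRE of N6W the side, the 22 weeks, the season, surgery on the other shoulder and the drug change together, and their parts cannot be told apart within these 6 libraries.

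The infraspinatus is a muscle of the rotator cuff that rotates the humerus outward and steadies the shoulder joint, and its tendon is often affected by tears. A muscle whose tendon is cut loses its load and tends to atrophy and to take up fat, while the opposite limb is often used as a control although it carries the animal's weight in a changed way. Nandrolone is an anabolic steroid that acts through the androgen receptor, and its decanoate ester releases the drug slowly from the site of injection. It reaches every muscle with the blood, operated or not.

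None of the 25197 Ensembl identifiers in the files could be paired with a gene name, because 0 matched the 35057 entries of the name table that was used. Genes are therefore described by counts, levels and directions, 2 that rose and 2 that fell are given by identifier, and neither marker genes of the tissue nor promoter or protein sequences could be looked up. Values are normalized reads, meaning reads per gene divided by a size factor of the library. The END-CC libraries of N6W held 16595040, 16347098 and 14822448 reads in animals 2907, 2908 and 2909, and the PRE libraries held 19974746, 14435065 and 11879736. The most abundant transcript took 30.3, 30.5 and 27.5% of the summed values in END-CC, against 33.2, 33.5 and 29.1% in PRE. Its share was thus lower in END-CC in each animal, although 3 pairs cannot reach a two-sided exact permutation p below 0.25. The summed values were 2.21e+07, 2.02e+07 and 2.16e+07 in END-CC, against 1.80e+07, 1.88e+07 and 1.92e+07 in PRE. A lower share therefore need not mean fewer normalized reads. Genes above 0 numbered 15562, 15987 and 15495 in END-CC, against 16303, 15901 and 15433 in PRE. A set of 12 libraries, from PRE and TR in both CONTROL and N22W, stood apart from the other 24: each held 499 genes at over 8-fold (value + 1) their level in every one of the 24. All 6 libraries compared lie among the 24, and 237 of the 499 genes were tested, of which 4 were called between END-CC and PRE of N6W.

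The unoperated muscle at the end differed from the baseline in 1343 of 16417 genes, or 8.18%, of which 721 (4.39%) were higher and 622 (3.79%) were lower in END-CC than in PRE. The median log2 fold change was 0.66 among genes that rose (quartiles 0.50 and 1.01) and −0.87 among genes that fell (quartiles −1.24 and −0.60), against −0.02 for all genes tested. Changes of at least 2-fold were found in 183 of the genes that rose and 248 of those that fell, changes of at least 4-fold in 37 and 33, and changes of at least 8-fold in 7 and 3. Genes that rose held 8.20, 8.38 and 9.94% of the summed values in END-CC, against 4.57, 5.14 and 5.66% in PRE. Genes that fell held 1.03, 1.11 and 1.03% in END-CC, against 2.23, 2.16 and 2.26% in PRE. No gene was switched fully on or off: 0 genes had at least 10 reads in each END-CC library and 0 reads in the 3 PRE libraries, and 0 had the reverse. In bulk tissue a change in the RNA per cell cannot be told apart from a change in the number of cells of a type.

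The test was limma on log2(value + 1), fitted over the whole series of 36 libraries with a term for each animal, at a false discovery rate of 0.05 by the Benjamini-Hochberg method over all genes tested. The count rests on a spread estimated from all arms: limma called 0 genes in a fit of the 6 libraries alone, where 3291 genes had an unadjusted p under 0.05 against 3943 (24%) in the fit of 36 libraries. It called 160 with only the 12 N6W libraries, 975 without the 12 libraries that stood apart, 417 without the animal term, 272 without animal 2907, 789 without 2908 and 772 without 2909. The quasi-likelihood test of edgeR on recovered reads called 1078 genes and DESeq2 1460.

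**Figure D1:**
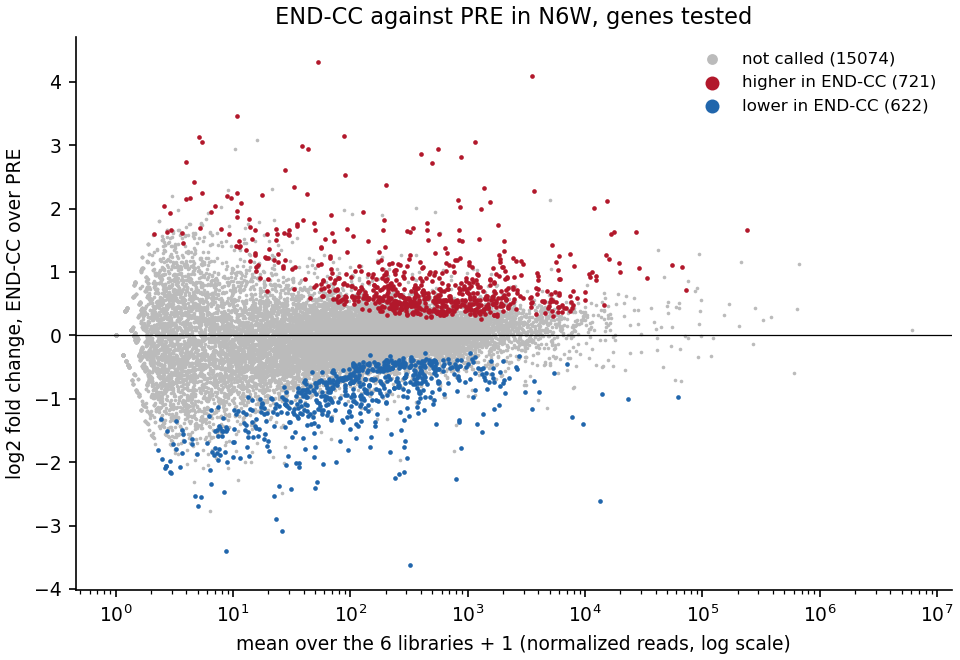
Log2 fold change of END-CC over PRE in N6W for each of the 16417 genes tested (y axis), against its mean over the 6 libraries in normalized reads plus 1 on a log scale (x axis). Red points are the 721 genes called higher, blue points the 622 called lower, grey points the genes not called; red points reach further to the right than blue ones.

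The 3 animals moved together in most of these genes. Of the genes that rose, 716 were higher in END-CC than in PRE in all 3 animals, and of the genes that fell, 613 were lower in all 3; since the test favours genes with a steady change, these counts describe the list and do not test it. Over all genes tested, 42.3% moved the same way in all 3 animals, 3375 of them upward and 3572 downward. In animal 2907 the genes that rose had a median log2 change of 0.75 and the genes that fell one of −0.89. In animal 2908 the medians were 0.55 and −0.74, and in animal 2909 they were 0.69 and −0.83. Animal 2907 had the largest of the 3 changes in 326 of the 721 genes that rose, 2909 in 261 and 2908 in 134. Among the 622 that fell it was the largest in 231, with 227 for 2909 and 164 for 2908, and over all genes tested in 5771, with 6016 for 2909 and 4630 for 2908. The 3 END-CC libraries all lay above the 3 PRE libraries in 1900 genes, 11.6% of those tested, and all below in 1856, 11.3%. Among called genes the groups did not overlap in 631 of 721 that rose and 548 of 622 that fell.

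**Figure D2:**
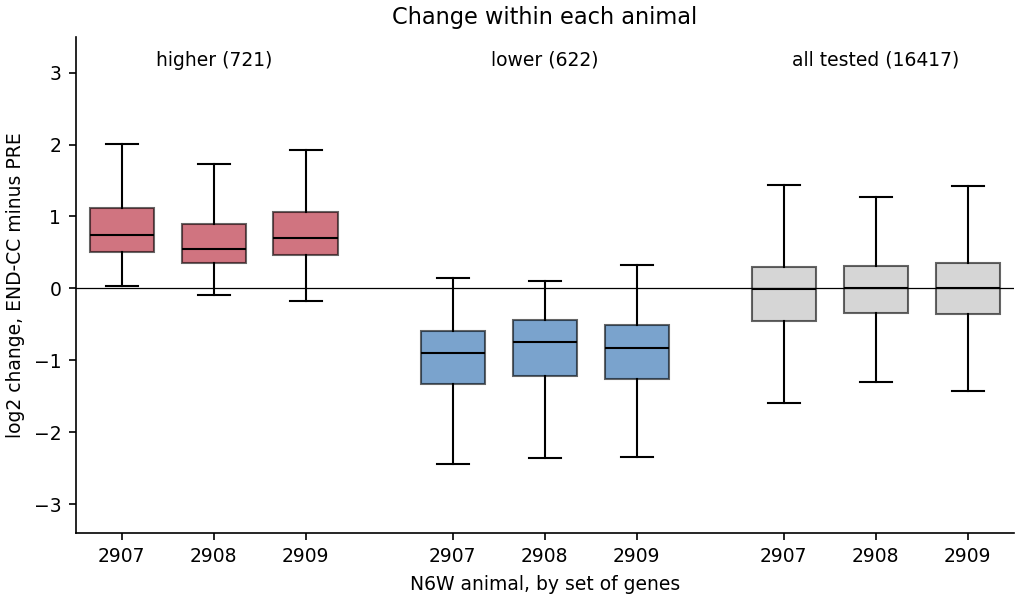
Log2 change from PRE to END-CC within each N6W animal (y axis) for the 721 genes that rose, the 622 that fell and all 16417 tested; boxes span the quartiles, lines mark medians, and whiskers reach the last value within 1.5 box lengths. The medians of called genes lie between 0.55 and 0.75 for rises and between −0.89 and −0.74 for falls.

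Genes are not independent replicates, and as a description across the 16417 genes the changes of 2907 and 2908 had a Pearson correlation of 0.24, those of 2907 and 2909 one of 0.26, and those of 2908 and 2909 one of 0.14. Among the 7601 genes with a mean of at least 100 normalized reads the correlations were 0.63, 0.56 and 0.43. These pairs share no library, though all 6 libraries share the assay. The root mean square log2 difference between END-CC and PRE was 0.81 in animal 2907, 0.77 in 2908 and 0.81 in 2909. It was 0.76 to 0.79 between the END-CC libraries of different animals and 0.76 to 0.81 between their PRE libraries. Over all genes the libraries of the same animal therefore lay about as far apart as libraries of the same group from different animals. END-CC and PRE libraries of different animals lay further apart, at 0.82 to 0.90.

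Calls split by abundance, with more rises than falls among abundant transcripts and more falls than rises among scarce ones. Of the 1528 genes with a mean of at least 1000 normalized reads over the 6 libraries, 215 were called higher and 50 lower in END-CC than in PRE. Of the 8816 genes with a mean under 100, 130 were called higher and 279 lower. The 135 genes above 10000 normalized reads had 21 called higher, or 15.6%, and 4 called lower, and their median log2 fold change over all members was 0.29. Genes between 10 and 100 normalized reads had a median of −0.12. The order was alike in each animal: above 10000 the medians were 0.42, 0.20 and 0.24 in 2907, 2908 and 2909, and between 10 and 100 they were −0.18, −0.07 and −0.07. With TMM scaling 209 genes of at least 1000 normalized reads were higher and 51 lower, and with the size factors of DESeq2 231 were higher and 48 lower. Such scaling moves scarce and abundant genes of a library nearly alike, so these counts cannot test a pattern that runs with level. The share of the most abundant transcript was lower in END-CC of each animal, as given above, although abundant genes more often rose than fell. The part of this share in the result was not tested. Called genes under 10 normalized reads changed most, with a median size of 1.81 on the log2 scale, and the median standard error of all genes tested was 0.58 there, against 0.15 between 100 and 1000.

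**Figure D3:**
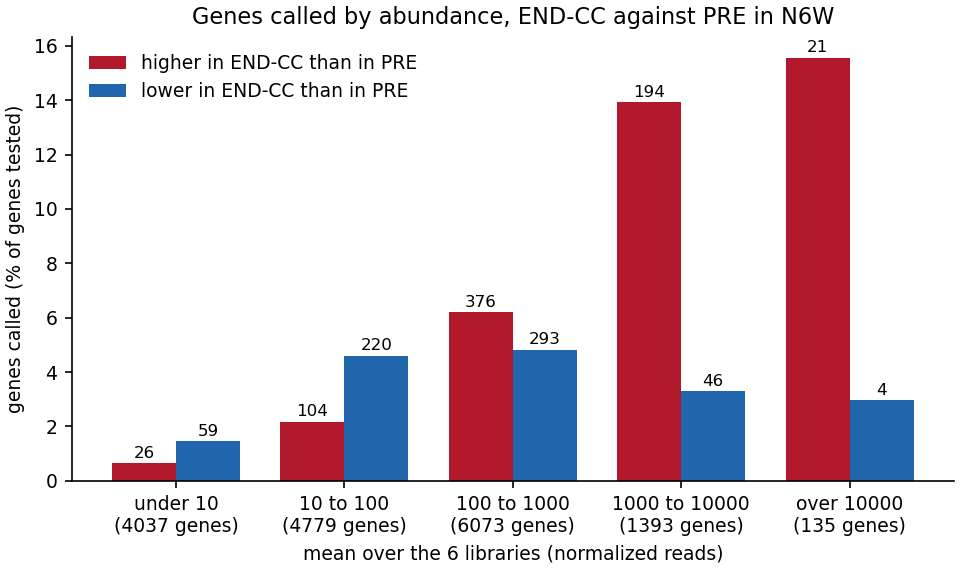
Genes called higher (red, left) or lower (blue, right) in END-CC than in PRE of N6W, as a percentage of the genes tested (y axis, from 0), by mean level over the 6 libraries in normalized reads (x axis); numbers above bars count genes. Above 1000 normalized reads the red bars are the taller ones, with 194 against 46 genes and 21 against 4, and under 100 the blue bars are.

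The largest rise among genes that moved the same way in all animals was that of ENSOARG00000003744. It had 45.3, 150 and 102 normalized reads in END-CC of animals 2907, 2908 and 2909, against 0.899, 10.4 and 3.23 in PRE. Every END-CC value was above every PRE value, and the gene went up in each animal, by 4.61, 3.72 and 4.61 on the log2 scale. The means were 99.1 ± 52.3 in END-CC and 4.86 ± 4.97 in PRE (SD, n = 3 each), and the log2 fold change was 4.31 (SE 0.87, limma adjusted p = 0.00448). The size of this change depends on the pseudocount, since the PRE libraries held 1, 8 and 2 reads of the gene: with a pseudocount of 4 it was 3.54 on the log2 scale. The rise was 4.16 without animal 2907, where it did not pass (limma adjusted p = 0.0639), and it did not pass without the animal term (limma adjusted p = 0.0844), nor in a fit of its 6 libraries alone (0.0903). In the unoperated muscle of N22W the gene had 212, 70.6 and 48.0 normalized reads, against 66.6, 18.4 and 2.02 in CONTROL. END-CC of N6W exceeded END-CC of CONTROL by 2.50 (log2, SE 0.95, limma adjusted p = 0.693), which did not pass, and 1 of the CONTROL values lay within the range of N6W.

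The most abundant transcript that rose was ENSOARG00000012656, the ninth in level of all genes tested. It had 424600, 308000 and 372500 normalized reads in END-CC of animals 2907, 2908 and 2909, against 109900, 114600 and 120800 in PRE. The PRE values lay close together, and each END-CC value was well above all of them. The means were 368367 ± 58410 in END-CC and 115100 ± 5467 in PRE (SD, n = 3 each). The rise was 1.67 on the log2 scale (SE 0.48, limma adjusted p = 0.033). The gene took 1.52 to 1.92% of the summed values in END-CC, against 0.609 to 0.630% in PRE. PRE libraries of the other arms, from the set that stood apart, lay higher, at 1.35 to 1.48% in N22W and 1.43 to 1.70% in CONTROL. The rise ranged from 1.53 to 1.79 with an animal left out but no longer passed without 2907 (limma adjusted p = 0.186), 2908 (0.0887) or 2909 (0.0718). It did not pass with only the 6 libraries compared (0.106), with only the 12 N6W libraries (0.201), without a filter on low values (0.0868) or without the 12 libraries that stood apart (0.0927). Its values were 84870 to 347900 in END-CC of N22W, against 111200 to 295600 in END-CC of CONTROL. These were 0.491 to 1.81% and 0.555 to 1.41% of the summed values. In CONTROL every END-CC share was thus below every PRE share, the opposite direction to N6W, while in N22W the shares overlapped. These differences were not tested, since the PRE libraries of both arms stood apart. All 3 N6W values were above the 3 CONTROL values, with a log2 difference of 1.01 that did not pass (SE 0.54, limma adjusted p = 0.759).

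The largest fall was that of ENSOARG00000001783, with 22.7, 23.5 and 40.9 normalized reads in END-CC of animals 2907, 2908 and 2909, against 146.5, 1474 and 208 in PRE. END-CC values were alike, while the PRE value of 2908 was far above the other PRE values. The means were 29.0 ± 10.3 in END-CC and 610 ± 749 in PRE (SD, n = 3 each). The log2 fold change was −3.62 (SE 0.90, limma adjusted p = 0.0163), made up of −2.64 in 2907, −5.91 in 2908 and −2.32 in 2909. Without animal 2908 it was −2.48 and did not pass (limma adjusted p = 0.172). It did not pass with only the 12 N6W libraries (0.0671) or the 6 compared (0.124). In END-CC of N22W the gene had 44.9, 31.2 and 26.6 normalized reads, against 33.3, 17.2 and 178 in END-CC of CONTROL. All of these but the highest CONTROL value were below the PRE values of N6W.

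The most abundant transcript that fell was ENSOARG00000007894, with 40300, 36720 and 48870 normalized reads in END-CC of animals 2907, 2908 and 2909, against 70460, 85860 and 89460 in PRE. The groups did not overlap, and the means were 41963 ± 6243 in END-CC and 81927 ± 10092 in PRE (SD, n = 3 each). The log2 fold change was −0.97 (SE 0.23, limma adjusted p = 0.0111), or 0.511-fold, and it was −1.05 without animal 2907 (limma adjusted p = 0.0687) and −0.84 without 2908 (0.0722), where it did not pass. It did not pass with only the 12 N6W libraries either (0.131), or with only the 6 compared (0.112). END-CC held 27270 to 43440 normalized reads in N22W, against 36650 to 65430 in CONTROL. Every END-CC value of the 3 arms was thus below every PRE value of N6W.

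**Figure D4:**
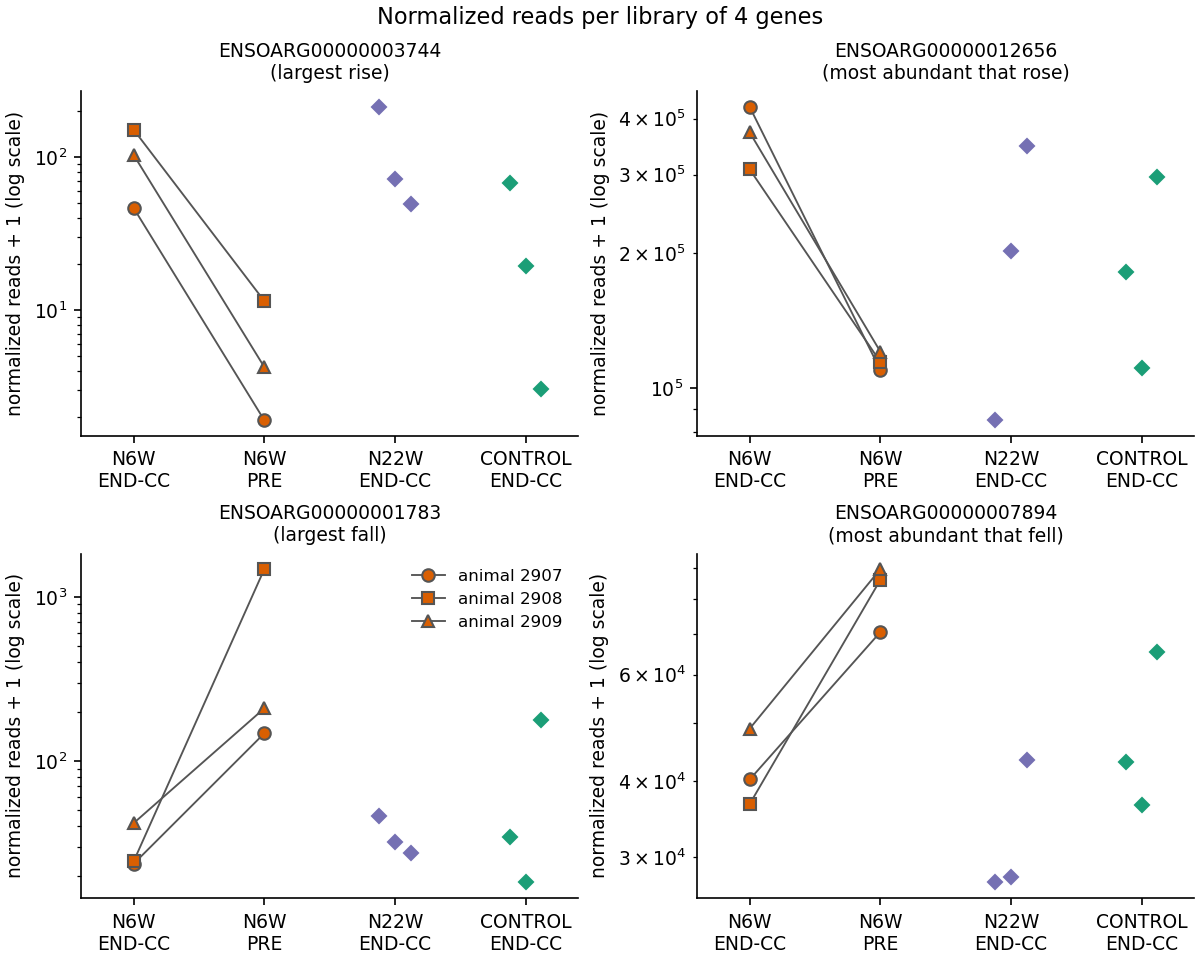
Normalized reads plus 1 on a log scale (y axis) of 4 genes in single libraries: END-CC and PRE of N6W, joined by a line for each animal, and END-CC of N22W and of CONTROL, which come from other animals (diamonds, animals in order of number). In each panel the 3 lines run the same way, from 45.3 to 150 normalized reads in END-CC against 0.899 to 10.4 in PRE for the largest rise.

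END was set against END-CC in N6W to compare the released and reattached muscle with the opposite one of the same animal in the same week. The reattached muscle differed from the opposite one in 677 genes, 4.12% of those tested, with 418 higher (2.55%) and 259 lower (1.58%) in END. Genes called between END-CC and PRE share the END-CC libraries with this comparison, so an opposite sign is favoured by the choice of genes and the values are given without a count of signs. The median log2 difference between END and END-CC was −0.33 for the 721 genes that rose in END-CC against PRE and 0.36 for the 622 that fell, against 0.03 for all genes tested. Set side by side, with PRE shared, the genes that rose had median log2 fold changes of 0.66 in END-CC, 0.35 in END and 0.20 in TR, and the genes that fell had medians of −0.87, −0.48 and −0.32. Over all genes against PRE, limma called 1343 genes in END-CC, 1016 (6.19%) in END and 1146 (6.98%) in TR.

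The 4 genes differed in this respect. ENSOARG00000003744 rose further on the operated side, with 428, 211 and 6118 normalized reads in END, against 45.3, 150 and 102 in END-CC, a log2 difference of 3.20 (SE 0.87, limma adjusted p = 0.0424). The log2 difference between END and END-CC was 0.04 (SE 0.48, limma adjusted p = 0.976) for ENSOARG00000012656 and −0.29 (SE 0.23, 0.445) for ENSOARG00000007894. It was 2.25 (SE 0.90, 0.128) for ENSOARG00000001783, with 58.9, 192 and 226 normalized reads in END and 22.7, 23.5 and 40.9 in END-CC. The count of 677 moved with single animals, to 318 without 2907, 1213 without 2908 and 2 without 2909, and was 195 without the 12 libraries that stood apart and 116 without the animal term. With only the libraries compared, limma called 0 genes and 2409 had an unadjusted p under 0.05.

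The unoperated muscle of CONTROL animals, which received no drug, shows where the same side stood in the same week after the same surgery. In a fit of the 9 END-CC libraries limma called 0 genes between N6W and CONTROL, with 1140 at an unadjusted p under 0.05 (6.94% of those tested), and edgeR called 0 and DESeq2 17. Both this comparison and that with PRE hold the END-CC libraries of N6W, so their medians are set side by side. The 721 genes that rose had medians of 0.66 against PRE and 0.09 against END-CC of CONTROL, and the 622 that fell had medians of −0.87 and −0.16. The median standard error of these differences was 0.17 for genes that rose and 0.25 for genes that fell, so differences of the size of those medians were not detectable in single genes.

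The END-CC mean of CONTROL was also placed on the line from PRE of N6W to END-CC of N6W, gene by gene on the log2 scale. It lay nearer to END-CC of N6W than to PRE in 606 of the 721 genes that rose and 470 of the 622 that fell, or 84.0 and 75.6%, against 61.2% over all genes tested. The END-CC mean of N22W lay nearer to END-CC of N6W in 496 and 425 of these genes, or 68.8 and 68.3%, against 51.9% over all genes tested. The median position, with PRE at 0 and END-CC of N6W at 1, was 0.62 and 0.64 in N22W and 0.85 and 0.80 in CONTROL for genes that rose and fell, against 0.53 in N22W and 0.76 in CONTROL over all genes tested. All these values hold the libraries that chose the genes. The change over 22 weeks within CONTROL and N22W was not tested, since their PRE libraries belong to the set that stood apart.

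Comparisons that hold none of the 6 libraries gave a further description of the called genes. From TR to END in N6W, the 6 weeks after reattachment in the operated muscle of the same animals, 76.7% of the genes that rose in END-CC against PRE had a higher value in END, against 48.0% of all genes tested, and 73.8% of those that fell had a lower one, against 51.9%. The median log2 changes were 0.16 and −0.17. In those directions 6 of the 721 (0.832%) and 3 of the 622 (0.482%) were called, against 0.0487 and 0.0365% of all genes. Among genes between 100 and 1000 normalized reads, where abundance varies less, the shares were 76.9 and 76.5%, against 48.8 and 51.2% of all genes of that level. The median log2 change from TR to END ran with level, from −0.08 for genes under 10 normalized reads to 0.14 for those above 10000. The part of level in the result was not tested. Genes that differed between END-CC and PRE thus mostly had the same sign between END and TR of the operated side.

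Between the END-CC libraries of N22W and CONTROL the signs ran the other way. Of the 721 genes that rose in END-CC against PRE of N6W, 537 (74.5%) were lower in N22W than in CONTROL, against 47.8% of all genes tested, with a median log2 difference of −0.16. Of the 622 that fell, 398 (64.0%) were higher in N22W than in CONTROL, against 52.1% of all genes, with a median of 0.11. Limma called 0 of all genes in this comparison, and 1499 genes (9.13%) had an unadjusted p under 0.05. Of the 849 of these that were lower in N22W, 129 (15.2%) were among the 721 that rose and 18 (2.12%) among the 622 that fell in END-CC against PRE of N6W. Of the 650 that were higher in N22W, 16 (2.46%) were among those that rose and 41 (6.31%) among those that fell, where 4.39% of all genes tested rose and 3.79% fell. Level moved with this comparison too: the median log2 difference between N22W and CONTROL was −0.16 for genes above 10000 normalized reads and 0.10 for those between 10 and 100, and its part in the result was not tested. Within 100 to 1000 normalized reads the shares were 74.7 and 69.3%, against 52.2% lower and 47.8% higher among all genes of that level.

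**Figure D5:**
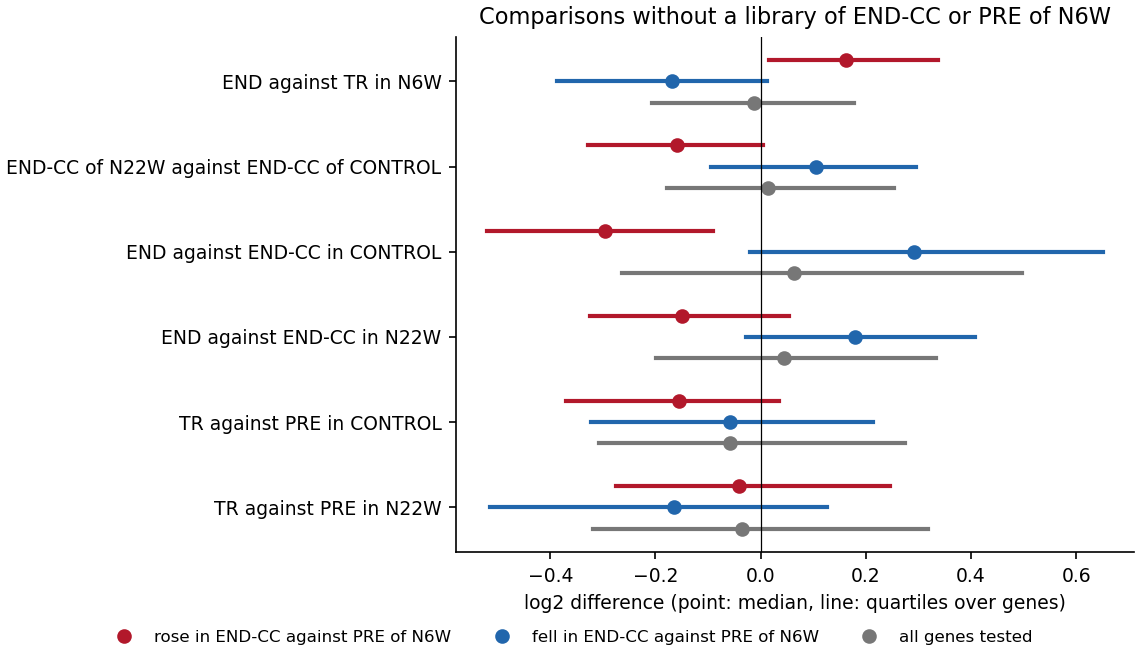
Log2 differences (x axis) in 6 comparisons that hold no END-CC or PRE library of N6W (y axis), for the genes that rose (red) or fell (blue) in END-CC against PRE of N6W and for all genes tested (grey); points are medians and lines span the quartiles over genes. Red lies right of blue in END against TR of N6W (0.16 and −0.17) and left of blue in 4 of the other comparisons.

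The contrast between operated and unoperated muscle in the other arms set the same genes apart. In CONTROL, 83.4% of the 721 genes were lower in END than in END-CC, against 45.5% of all genes tested, and 230 (31.9%) were called lower, against 9.87% of all genes; they make up 14.2% of the genes called lower there. Of the 622 genes, 74.0% were higher in END than in END-CC of CONTROL, against 54.4% of all genes, and 155 (24.9%) were called higher, against 9.53% of all genes; they make up 9.91% of the genes called higher there. In N22W the shares were 68.9 and 71.9%, against 44.9 and 55.0% of all genes. There 19 of the 721 (2.64%) were called lower, against 0.78% of all genes, and 13 of the 622 (2.09%) higher, against 0.822%. All these comparisons share 1 estimate of the spread per gene, which favours calls of the same steady genes. The END-CC libraries of CONTROL are also the ones set against N22W above, so these patterns are not separate from that one. Level moved with these comparisons: in CONTROL the median log2 difference between END and END-CC was 0.45 for genes under 10 normalized reads and −0.49 for those above 10000, and its part in the result was not tested. Between 100 and 1000 normalized reads, 85.9% of the genes that rose were lower in END than in END-CC of CONTROL, against 59.9% of all genes of that level, and 73.7% of those that fell were higher, against 40.1%. In N22W the shares at that level were 72.6 and 70.3%, against 55.8 and 44.2%. Genes higher in the unoperated muscle of N6W at the end than at baseline were thus mostly higher on the unoperated than on the operated side in CONTROL and N22W as well.

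Genes that changed from PRE to TR, with tendon release, were described in the same way. TR of CONTROL had no drug. TR of N22W had 16 weeks of 150 mg of nandrolone decanoate a week, so release and drug cannot be told apart there. From PRE to TR in CONTROL, 691 genes rose (4.21%) and 1152 fell (7.02%). The genes that rose there had a median log2 fold change of −0.12 in END-CC against PRE of N6W, with 20 called higher (2.89%) and 22 lower (3.18%). The genes that fell there had a median of 0.07, with 66 called higher (5.73%) and 48 lower (4.17%). Among all genes 4.39% were called higher and 3.79% lower, so these shares lay near those of all genes. From PRE to TR in N22W, 863 genes rose (5.26%) and 1901 fell (11.6%), and their medians in END-CC against PRE of N6W were 0.05 and 0.04. Of the genes that rose from PRE to TR in N22W, 65 were called higher and 15 lower in END-CC of N6W, or 7.53 and 1.74%. Of the genes that fell from PRE to TR in N22W, 84 were called higher and 121 lower in END-CC of N6W, or 4.42 and 6.37%. ENSOARG00000003744 rose from PRE to TR in both arms, with a log2 fold change of 4.72 (SE 0.87, limma adjusted p = 0.0027) in CONTROL and 7.56 (SE 0.87, limma adjusted p = 8.04e-05) in N22W, where drug was given too. ENSOARG00000007894 fell in both, with −0.84 in CONTROL (SE 0.23, limma adjusted p = 0.0211) and −1.18 in N22W (SE 0.23, limma adjusted p = 0.00198). ENSOARG00000012656 had log2 fold changes of −0.32 and −0.06 there (SE 0.48 each, limma adjusted p = 0.719 and 0.956). From PRE to TR in N6W, which shares the PRE libraries, ENSOARG00000012656 changed by 1.15 (SE 0.48, limma adjusted p = 0.139). ENSOARG00000003744 changed by 3.46 there (SE 0.87, limma adjusted p = 0.0184) and ENSOARG00000007894 by −1.02 (SE 0.23, limma adjusted p = 0.0101).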

How the data were processed

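Total RNA was depleted of ribosomal RNA with probes for human RNA and sequenced from stranded libraries, per the labels' protocols. Among the tools in the submitters' processing notes are STAR 2.3.0e and R 3.0.2, and the build is Oar_v3.1; what each was used for, the counter and the annotation are not stated there. The deposited signal per gene was, in every library, a whole multiple of a single step with at most 4 significant digits, and was read as counts that the authors divided by a size factor; among values of at most 100 reads, 100% were within 0.1 read of whole.

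Genes with a median of at least 0.5 over 36 libraries (16417) were tested with limma 3.58.1 (mean-dependent prior, pseudocount 1, the authors' scaling); fold changes of low genes lie closer to 0 on this scale. The design planned edgeR for whole counts and limma for other values. Comparisons between arms used the 9 END-CC libraries without a block. Libraries were paired by the animal number in their titles; deviations from group means correlated at 0.21, 0.17 and 0.17 between END-CC and PRE of the same animal. Reads recovered from the values went into edgeR 4.0.16 and DESeq2 1.42.0 under R 4.3.3. Libraries of each group compared were checked against each other for copies: the chi-square per gene was at least 16.2, where draws from the same library lie near 1. The tests were first tested on simulated data with known changes.

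Genes named are, per direction, the called gene with the largest change and the most abundant called gene, among those that moved the same way in 3 animals and averaged at least 10 normalized reads in the higher group. Members and lists were chosen with earlier results of these data known, and END against TR in N6W and END against END-CC in the other arms were added later. Planned lists of named genes and marker genes could not be used without names.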

Additional observations from a re-analysis of the deposited data

Results flagged for a closer look

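The change from PRE differed between the operated and the unoperated muscle of N6W in 677 genes, by the limma test of END against END-CC. ENSOARG00000003744 is among them, higher in END than in END-CC by 3.20 on the log2 scale, with 428, 211 and 6118 normalized reads in END, against 45.3, 150 and 102 in END-CC of animals 2907, 2908 and 2909.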

How the results depend on the processing

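With 1 animal left out, limma called 272 to 789 genes between END-CC and PRE of N6W, 2 to 1213 between END and END-CC of N6W, and 0 between END-CC of N6W and of CONTROL (1008 to 1266 at an unadjusted p under 0.05). Leaving out arms gave lower counts in these fits: with only the libraries compared 0 in END-CC against PRE (3291 at an unadjusted p under 0.05) and 0 in END against END-CC (2409), with only the 12 N6W libraries 160 and 0 (2857), and 195 in END against END-CC without the 12 libraries that stood apart. Animals pair the libraries by design, and without the replicate block the counts were 417 and 116. For END against END-CC, 413 genes were called without a filter on low values and 1235 with DESeq2 (593 higher, 642 lower, against 418 and 259 in limma). For END-CC of N6W against CONTROL, 2 genes were called without the filter and 17 with DESeq2. Counts under the other alternatives run lay within 1.5 times those reported. The cause of these shifts was not tested, apart from the smaller number of samples or the larger number of genes that the settings themselves bring. Log2 fold changes of the 4 genes named kept their sign in 60 of 60 alternatives and passed in 43. The genes were chosen as moving the same way in all 3 animals, so leaving out an animal could not turn the sign. With only the libraries compared or only the 12 N6W libraries the estimates were unchanged by design. The count of signs therefore describes the choice of genes and does not test it. The medians of gene lists moved by less than the spread between animals in 41 of 42. The exception was genes higher in TR than in PRE of N22W, whose median ran from 0.0029 to 0.081 with an animal left out. Each of these settings kept the same lists and at least 2 of the 3 animals, so small moves were favoured and the count does not test the lists. The 3 pairs limit the test, and the recovered depth of 11879736 to 19974746 reads limits genes under 10 normalized reads.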
